A study of Homo sapiens with 33 samples.

Results

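The genes described here encode the nuclear share of the mitochondrial respiratory chain and of the mitochondrial ribosome. They were taken as every spot of a human cDNA membrane array whose platform annotation gives exactly 1 gene symbol and whose symbol starts with NDUFA, NDUFB, NDUFC, NDUFS, NDUFV, SDH, UQCR, COX, ATP5, MRPL or MRPS. This rule used names only, though it was set with earlier results of these data known. It gave 159 spots for 113 genes, out of 34560 spots of which 18025 have 1 symbol. Complex I contributed 20 spots for 15 subunit genes and 12 spots for 8 assembly factor genes. Complex II had 5 spots, those of the assembly factors SDHAF2 and SDHAF3 included. Complex III had 3, complex IV 2 for subunits and 11 for assembly factors, and complex V 8. The large subunit of the mitochondrial ribosome had 58 spots for 43 genes and the small subunit 33 spots for 22 genes. A further 7 spots carry the names of pseudogenes, antisense or divergent transcripts, while 14 spots that name a symbol of these families beside other genes were left out.

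The respiratory chain passes electrons from NADH (complex I) and succinate (complex II) through complex III to oxygen at complex IV, pumps protons across the inner mitochondrial membrane, and lets complex V make ATP from the gradient. A few core subunits of complexes I, III, IV and V are encoded by mitochondrial DNA and are made by the mitochondrial ribosome, whose own proteins (MRPL in the large subunit, MRPS in the small one) are all encoded in the nucleus. The genes described here are therefore nuclear genes that serve both the assembled complexes and the machine that translates their mitochondrial partners.

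Radioactively labelled cDNA of 2 human cell lines had been hybridised to these membranes. CaCo-2 is an adherent colon carcinoma line with epithelial features, while THP-1 comes from a monocytic leukaemia and grows in suspension, so the lines also differ in medium and culture form. The groups are CaCo-2 cells given TNF (an inflammatory cytokine) at 5 ng/ml for 60 min, unstimulated CaCo-2 cells, THP-1 cells given the same TNF treatment, and unstimulated THP-1 cells. They hold 5, 5, 7 and 5 arrays in that order, after columns that carry the same readings were counted once. Whether each array had its own culture is not stated in the labels, and p-values therefore measure a spread between arrays that may be technical. Levels are log2 intensities after quantile normalization, a spot's level cannot be set against another spot's, and a value of 0 was taken as no reading. A spot was tested where at least 3 arrays of each group compared had a reading above 0, and it is said to be called where limma's Benjamini-Hochberg adjusted p over all spots tested was under 0.05. In RNA from a whole culture, fewer cells that express a gene and less RNA per cell cannot be told apart.

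Between 60.4% and 67.9% of all spots had a reading above 0 on an array. Within their groups, 3 CaCo-2 arrays (TNF replicates 1 and 2, control replicate 1) deviated together, with correlations of 0.54 to 0.67 over 6401 spots, and so did CaCo-2 TNF replicate 6 and control replicate 5, with a correlation of 0.73. No label accounts for either set, and the counts of calls between the lines are given with and without them. THP-1 control replicate 3 was deposited at 3 times the scale of the other arrays used and was divided by 3. The lines' own marker genes were sparsely covered: LAPTM5, a lysosomal gene of blood cells, was above 0 on 1 of 10 CaCo-2 arrays and 12 of 12 THP-1 arrays, and 1 of 2 spots for the epithelial factor ELF3 was above 0 on 8 of 10 CaCo-2 and 0 of 12 THP-1 arrays, while the other ELF3 spot went the opposite way (2 of 10 and 11 of 12). The other THP-1 markers were mixed. LAIR2 was above 0 on 2 of 10 CaCo-2 and 12 of 12 THP-1 arrays at spot 70C05, but on 7 of 10 and 4 of 12 at spot 40G22. CYBB was above 0 on 3 of 10 and 11 of 12 at spot 92D14, and on 4 of 10 and 10 of 12 at spot 70G02. AIF1, TYROBP and LILRB1 were above 0 on 10 of 10 CaCo-2 arrays, PTPRC on 9 of 10 and CSF1R on 8 of 10. CSF1R (0.02), TYROBP (0.04) and LILRB1 (0.10) had log2 differences above 0, CaCo-2 minus THP-1. AIF1 (-0.04) and PTPRC (-0.05) lay below 0, and none of these differences was called. Villin (VIL1), a brush border protein of gut epithelium, was higher in CaCo-2 by 0.11 on the log2 scale (adjusted p = 0.000585, limma), as was CLDN4 at spot 79P18 by 0.12 (adjusted p = 0.00586, limma), whereas CDH17 at spot 71C16 (-0.05) and CLDN4 at spot 59O01 (-0.08) lay below 0 without a call. Of the tested marker spots, 2 of 4 of the CaCo-2 list, 0 of 5 of the THP-1 list and 0 of 4 of a list for fibroblasts, endothelium and lymphocytes were called between the lines.

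The promoters of 4 of the genes called below are shown, since most of the called spots lie higher in the same line. They belong to the called genes that, NDUFB9 apart, stayed called under the most processing settings, either over all (MRPL12) or among those that hold each of 3 short motifs (NDUFA9, MRPL51 and COX18). Each is a stretch of 300 bases around the start of the gene, most of them upstream of it, written 5′ to 3′ on the gene's strand, as given by RefSeq for build GRCh38.p14. Capitals mark matches to GCGCATGCG (the core bound by NRF1, nuclear respiratory factor 1), CCGGAAG (the core bound by ETS factors such as GABPA) or AAGATGGCG (the core bound by YY1), on either strand.
MRPL12, chr17:81703117-81703416, + strand: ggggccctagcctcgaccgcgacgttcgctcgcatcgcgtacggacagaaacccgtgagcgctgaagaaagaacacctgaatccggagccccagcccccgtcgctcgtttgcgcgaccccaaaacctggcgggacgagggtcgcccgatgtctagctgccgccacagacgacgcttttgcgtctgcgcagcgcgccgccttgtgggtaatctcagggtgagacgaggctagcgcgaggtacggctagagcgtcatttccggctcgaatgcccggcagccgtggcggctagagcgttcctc
NDUFA9, chr12:4648864-4649163, + strand: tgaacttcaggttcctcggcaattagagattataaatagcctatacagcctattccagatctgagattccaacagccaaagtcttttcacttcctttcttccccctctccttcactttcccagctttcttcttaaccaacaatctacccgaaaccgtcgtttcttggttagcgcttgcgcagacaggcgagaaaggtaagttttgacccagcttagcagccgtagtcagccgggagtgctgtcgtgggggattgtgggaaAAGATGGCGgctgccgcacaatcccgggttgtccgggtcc
MRPL51, chr12:6493213-6493512, - strand: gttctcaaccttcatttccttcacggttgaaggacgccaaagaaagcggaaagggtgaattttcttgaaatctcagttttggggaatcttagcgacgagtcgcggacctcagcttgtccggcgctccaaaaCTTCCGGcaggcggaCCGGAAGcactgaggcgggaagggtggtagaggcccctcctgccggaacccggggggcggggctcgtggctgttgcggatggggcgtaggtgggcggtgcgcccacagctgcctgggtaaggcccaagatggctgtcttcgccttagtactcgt
COX18, chr4:73069667-73069966, - strand: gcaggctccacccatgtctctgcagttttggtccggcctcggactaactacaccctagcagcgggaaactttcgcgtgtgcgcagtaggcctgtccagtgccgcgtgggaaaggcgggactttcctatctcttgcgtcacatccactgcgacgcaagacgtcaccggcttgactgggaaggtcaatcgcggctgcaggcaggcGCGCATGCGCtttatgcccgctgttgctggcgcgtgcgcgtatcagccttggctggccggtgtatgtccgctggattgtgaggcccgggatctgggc

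The promoter of MRPL12, a large subunit protein of the mitochondrial ribosome, holds none of the 3 letter strings. That of NDUFA9 holds the YY1 letters just after the start of the gene, that of MRPL51 the ETS letters in both orientations, and that of COX18 the NRF1 letters, which overlap with their own reverse complement. Of the 108 protein-coding genes, 94 had a promoter in the table. The ETS letters occurred in 37.2% of these 94 against 10.7% of 27305 promoters of the table, the YY1 letters in 16% against 1.85%, and the NRF1 letters in 7.45% against 2.10%. The 27305 were not limited to protein-coding genes or to genes with a spot, so the 2 sets differ in kind and the difference was not tested. Among the 26 promoters of genes called higher in CaCo-2 the shares were 30.8% (ETS), 23.1% (YY1) and 3.85% (NRF1), against 40.9%, 13.6% and 7.58% in the 66 of genes not called or not tested. ETS and YY1 letters overlapped in 0 of the gene family's promoters and in 4 of all promoters. A match describes letters and no binding was measured.

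Readings above 0 were more frequent for these genes than for the array as a whole, and the classes differed widely. Of the 159 spots, 36 (22.6%) had a reading on all 22 arrays, against 18.5% of all spots, and only 1 (of the 2 for MRPL48) had none. Complex I subunits were read regularly: 85.9% of their readings were above 0 in CaCo-2 TNF and 96.0% in CaCo-2 control arrays, and 87.1% in THP-1 TNF and 92.0% in THP-1 control arrays. Complex I assembly factors were read far less often, at 46.7% and 50.8% in CaCo-2 TNF and control arrays and at 48.8% and 42.4% in THP-1 TNF and control arrays. The 8 spots of complex V lay between them, with 70.0% and 62.5% in CaCo-2 TNF and control arrays and 53.6% and 50% in THP-1 TNF and control arrays. Large subunit ribosomal proteins were at 68.5% and 77.6% in CaCo-2 TNF and control arrays and at 73.3% and 70.3% in THP-1 TNF and control arrays, and small subunit proteins at 74.5%, 81.1%, 70.1% and 67.3% in the same order of groups. Over all 159 spots the share ran from 63.5% to 82.8% in CaCo-2 TNF arrays and from 66.0% to 81.1% in CaCo-2 control arrays, and from 66.5% to 78.0% in THP-1 TNF arrays and from 66.7% to 71.7% in THP-1 control arrays, so the groups overlapped.

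**Figure D1:**
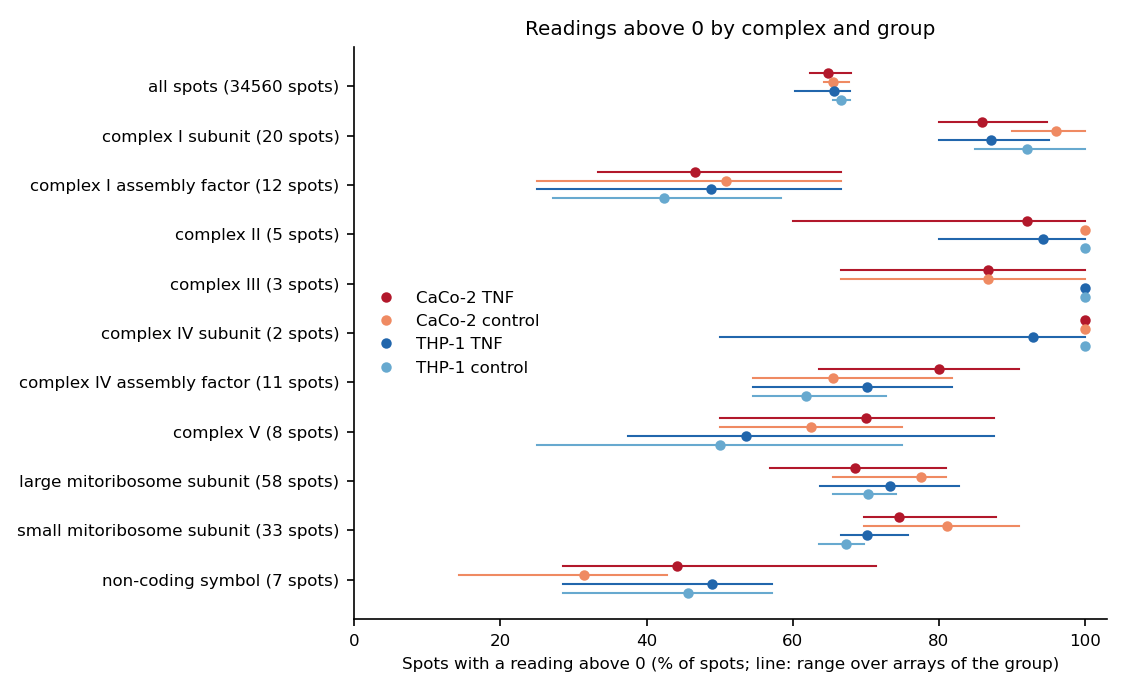
Share of spots with a reading above 0 (x axis, percent) for all spots and for each class of genes (y axis), with a point for each group and a line for the range over its arrays. Complex I subunits lie between 85.9% and 96.0% in the 4 groups, complex I assembly factors between 42.4% and 50.8%.

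MRPL19, a large subunit protein with 4 spots, was the only gene with a spot read in nearly all arrays of a single line. Its spot 10N24 had no reading above 0 on the 5 CaCo-2 TNF arrays, and -2.25 on 1 CaCo-2 control array (4 at 0). In THP-1 cells it read -2.36 to -2.25 with a median of -2.32 on 7 THP-1 TNF arrays, and -2.40, -2.40, -2.37, -2.33 and -2.33 on 5 THP-1 control arrays. It thus had a reading on 1 of 10 CaCo-2 arrays and on 12 of 12 THP-1 arrays, where the single CaCo-2 reading lay at the upper edge of the THP-1 range, and a pattern this one-sided for THP-1 occurred in 0.0781% of all spots. The other 3 MRPL19 spots did not show it: 1 was read on 6 of 10 CaCo-2 and 2 of 12 THP-1 arrays, and the other two on few arrays of either line. What each 0 at this spot stands for is unknown, and no fold change can be formed. Where a second column of the same readings was deposited, it had fewer values of 0 than the column used. For CaCo-2 control replicate 1 these were 20.6% of spots against 35.2%. A 0 can thus stand for a lost reading, and the second columns are not given for this spot.

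Across both conditions the lines differed in many of these genes, by small amounts and mostly in one direction. Of the 159 spots, 91 could be tested and 68 had too few readings. Of the 91, 33 were called, 30 higher and 3 lower in CaCo-2 than in THP-1, where 17.7% of all 16931 spots tested were called (12.9% higher and 4.82% lower). The median difference was 0.0504 on the log2 scale, against 0.0256 over all spots, and 76 of the 91 spots (83.5%, against 70.6% of all spots) were higher in CaCo-2. Both CaCo-2 group means lay above both THP-1 group means for 68 of the 91 spots, which is 74.7% against 50.4% of all spots, and below both for 12. The largest called difference was 1.22-fold, and no called spot separated all CaCo-2 from all THP-1 arrays, something that 1.07% of all spots did. These counts depended on how the arrays were processed. With values of 0 set to the array's lowest reading 6 spots were called (3.77%, against 4.41% of all spots), with the single and summed columns averaged 7 (6.48% against 6.04%), without normalization between arrays 1 (1.10% against 0.874%), and with quantile normalization over the 6401 always measured spots 6 of the 36 among them (16.7% against 23.7%). In these 4 settings the genes were called about as often as all spots, or less often, whereas in the other 13 settings they were called more often. Among those, 36 spots were called without the 3 CaCo-2 arrays that stand apart, 28 without the 2 that stand apart and 32 without all 5. These were 34.95%, 34.57% and 34.78% of the spots tested, against 17.66%, 13.54% and 15.81% of all spots. The share of calls over all spots that were higher in CaCo-2 was 72.8%, against 33.8% without normalization and 46.9% with the always measured spots.

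**Figure D2:**
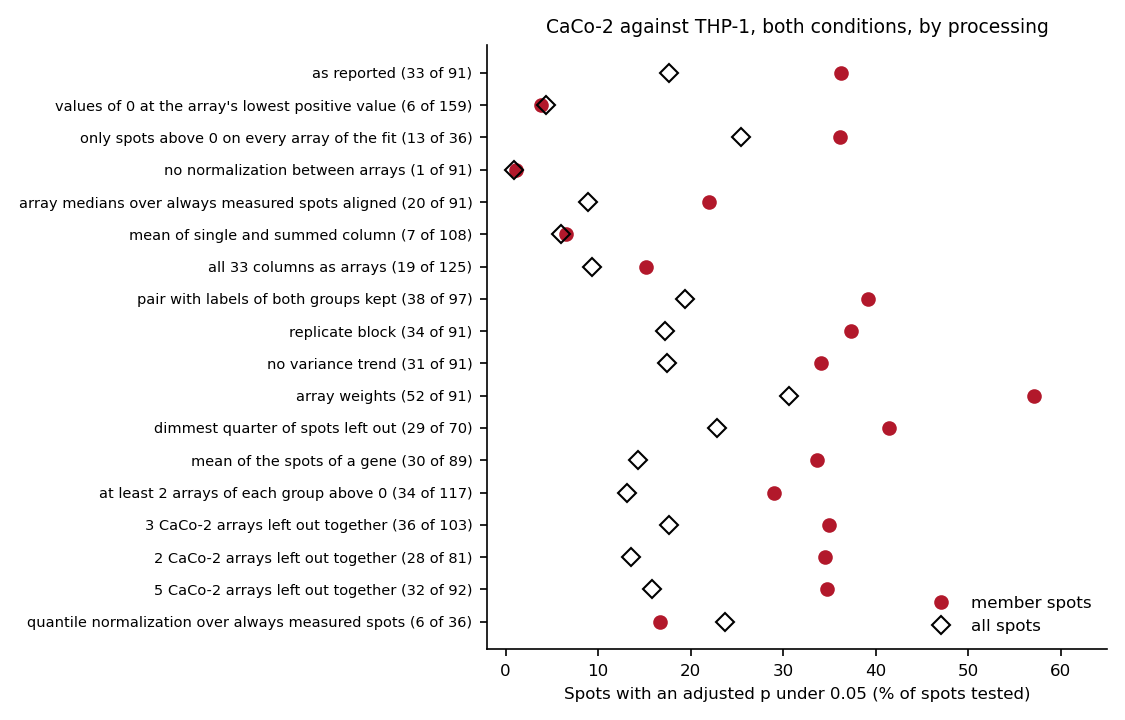
Share of tested spots called between CaCo-2 and THP-1 in both conditions (x axis, percent) under each processing setting (y axis, with the number of spots called among those tested). Filled points are the respiratory chain and mitoribosome spots (36.3% as reported), open diamonds are all spots (17.7% as reported); the points coincide or change places in 4 settings.

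Large subunit proteins of the mitochondrial ribosome gave the most calls, 13 of 33 spots tested, all higher in CaCo-2. This class also had the most spots tested. Its share of 39.4% lay near the 41.2% of complex I subunits and the 35% of the small subunit. Over all spots, 17.7% were called and 12.9% were called higher. MRPL38 had the smallest p of all the genes described here, at -2.55, -2.49, -2.47 and -2.41 on 4 CaCo-2 TNF arrays (1 at 0), and -2.56, -2.50, -2.48, -2.41 and -2.40 on 5 CaCo-2 control arrays. In THP-1 cells its level was -2.63 to -2.55 with a median of -2.60 on 7 THP-1 TNF arrays, and -2.64, -2.63, -2.62, -2.62 and -2.54 on 5 THP-1 control arrays. All 9 CaCo-2 readings exceeded the THP-1 median, 2 of them lay within the THP-1 range, and the difference of 0.13 ± 0.02 (SE), or 1.09-fold, had an adjusted p of 0.000489 by limma. A second MRPL38 spot gave -0.04 and was not called. MRPL14 read -2.25, -2.23, -2.20, -2.16 and -2.10 on 5 CaCo-2 TNF arrays, and -2.23, -2.18, -2.15, -2.12 and -2.12 on 5 CaCo-2 control arrays, against -2.30 to -2.20 with a median of -2.29 on 6 THP-1 TNF arrays (1 at 0), and -2.33, -2.32, -2.31, -2.30 and -2.26 on 5 THP-1 control arrays. Only 2 of the THP-1 readings, both from TNF arrays, reached into the CaCo-2 range, and the difference was 0.11 ± 0.02 (adjusted p = 0.000814, limma). MRPL14 was also the only gene called between the unstimulated lines alone.

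MRPL41 (0.10 ± 0.02), MRPL3 (0.08 ± 0.02), MRPL12 (0.13 ± 0.03), MRPL28 (0.12 ± 0.03), MRPL37 (0.13 ± 0.03) and MRPL51 (0.14 ± 0.04) were further large subunit calls, each given as a log2 difference with its SE. MRPL55, MRPL42, MRPL33, MRPL30 and MRPL50 followed, with differences of 0.06 to 0.09. MRPL51 and MRPL12 were the steadiest of these: each stayed called in 14 of 16 other settings and in all 22 fits that left out 1 array. MRPL12 read -2.59, -2.55, -2.53, -2.45 and -2.38 on 5 CaCo-2 TNF arrays, and -2.55, -2.49, -2.49, -2.38 and -2.37 on 5 CaCo-2 control arrays. In THP-1 cells it read -2.68 to -2.51 with a median of -2.57 on 7 THP-1 TNF arrays, and -2.66, -2.63, -2.62, -2.60 and -2.59 on 5 THP-1 control arrays. The CaCo-2 readings were all above the THP-1 median, and 4 THP-1 readings reached into the CaCo-2 range. Of the 13, 3 spots, MRPL3, MRPL55 and MRPL33, turned lower in CaCo-2 when values of 0 were set to the array's lowest reading and when the columns were averaged, and MRPL42 turned slightly negative without normalization.

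In the small subunit, 6 spots were called higher and 1 lower among 20 tested (35% called, against 17.7% of all spots). MRPS24 (0.12 ± 0.02, adjusted p = 0.00177 by limma), MRPS7 (0.11 ± 0.03), MRPS9 (0.26 ± 0.08), MRPS25 (0.06 ± 0.02) and both spots of MRPS35 (0.18 ± 0.05 and 0.09 ± 0.03) were higher in CaCo-2. The MRPS25 call was kept in 5 of 19 fits that left out 1 array and in 3 of 14 other settings. Without THP-1 control replicate 3, which read -2.72, the MRPS35 spot 62C23 differed by 0.11. MRPS9 read -0.67, -0.64, -0.63, -0.59 and -0.10 on 5 CaCo-2 TNF arrays, and -0.80, -0.59, -0.32, -0.17 and -0.08 on 5 CaCo-2 control arrays. Its THP-1 readings were -0.81 to -0.47 with a median of -0.72 on 7 THP-1 TNF arrays, and -0.87, -0.76, -0.75, -0.70 and -0.61 on 5 THP-1 control arrays. The difference of 1.20-fold was the widest in the small subunit, though 6 of the 10 CaCo-2 readings lay within the THP-1 range. MRPS27, a small subunit protein with pentatricopeptide repeats, was lower in CaCo-2, with a difference of -0.13 ± 0.04 (adjusted p = 0.0464, limma), with -0.21, -0.18, -0.10, -0.10 and -0.01 on 5 CaCo-2 TNF arrays, and -0.24, -0.21, -0.13, -0.10 and 0.02 on 5 CaCo-2 control arrays. Its THP-1 readings, -0.19 to 0.13 with a median of -0.02 on 7 THP-1 TNF arrays, and -0.06, -0.03, -0.02, 0.08 and 0.22 on 5 THP-1 control arrays, overlapped with 7 of the 10 CaCo-2 readings, and the call was kept in 8 of 22 fits that left out 1 array. MRPS18B (-0.11 ± 0.04) and MRPS14 (-0.06 ± 0.03) were also below 0 and were not called.

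Complex I, which takes electrons from NADH, had 7 of 17 subunit spots called (41.2%, against 17.7% of all spots). All were higher in CaCo-2 and all were of accessory subunits. NDUFB9, a subunit of the LYR protein family at the membrane arm, read -2.49, -2.42, -2.38, -2.33 and -2.26 on 5 CaCo-2 TNF arrays, and -2.60, -2.54, -2.45, -2.43 and -2.36 on 5 CaCo-2 control arrays. Its THP-1 levels were -2.65 to -2.48 with a median of -2.59 on 7 THP-1 TNF arrays, and -2.63, -2.59, -2.58, -2.57 and -2.53 on 5 THP-1 control arrays. Of the 10 CaCo-2 readings 9 exceeded the THP-1 median, and the difference was 0.15 ± 0.03 or 1.11-fold (adjusted p = 0.00184, limma). It was called in 15 of 16 other settings, more than any other spot described here. NDUFA9, an accessory subunit near the junction of the peripheral and membrane arms, differed most, by 0.29 ± 0.06 or 1.22-fold, with -2.82, -2.82, -2.63, -2.51 and -2.49 on 5 CaCo-2 TNF arrays, and -2.76, -2.66, -2.56, -2.34 and -2.30 on 5 CaCo-2 control arrays. In THP-1 it read -2.90, -2.90, -2.88, -2.80 and -2.77 on 5 THP-1 TNF arrays (2 at 0), and -3.17, -2.86, -2.85, -2.83 and -2.83 on 5 THP-1 control arrays. The CaCo-2 arrays that stand apart as a set of 3 held the lowest CaCo-2 readings of NDUFA9, of which 2 lay within the THP-1 range, and the lowest THP-1 reading was that of control replicate 3.

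NDUFB6 (0.08 ± 0.02), NDUFA6 (0.09 ± 0.02), NDUFB11 (0.09 ± 0.02), NDUFA13 (0.05 ± 0.01) and NDUFA5 (0.04 ± 0.02) made up the other complex I calls, of which that of NDUFA5 was kept in 8 of 22 fits that left out 1 array. NDUFB11 has 2 spots that both lay higher, of which 1 was called. NDUFA6, NDUFA13 and NDUFA5 turned slightly lower in CaCo-2 without normalization, at -0.02 each. The core flavin-binding subunit NDUFV1, among the brightest of the spots, differed by 0.10 ± 0.04 and was not called (adjusted p = 0.0647, limma). NDUFB2 at its brighter spot (-0.06 ± 0.02) and NDUFA10 at one of its spots (-0.07 ± 0.03) were below 0 and not called. Assembly factors of complex I could be tested at 3 of 12 spots, and 0 were called: the smallest p belonged to NDUFAF7, a methyltransferase that acts on the complex during assembly, with 0.04 ± 0.02.

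All 5 complex II spots, which include the assembly factors SDHAF2 and SDHAF3, were higher in CaCo-2. Those of SDHC and 1 of SDHD were called, which is 40% against 17.7% of all spots. SDHC and SDHD are the membrane anchors of succinate dehydrogenase, the enzyme shared by the respiratory chain and the tricarboxylic acid cycle. SDHC read -2.06, -2.01, -1.98, -1.92 and -1.87 on 5 CaCo-2 TNF arrays, and -2.02, -1.95, -1.89, -1.89 and -1.85 on 5 CaCo-2 control arrays, against -2.05 to -1.97 with a median of -2.03 on 7 THP-1 TNF arrays, and -2.09, -2.06, -2.03, -2.02 and -1.98 on 5 THP-1 control arrays. The difference was 0.08 ± 0.02 (adjusted p = 0.0188, limma), with 9 of 10 CaCo-2 readings above the THP-1 median. SDHD differed by 0.11 ± 0.04 (adjusted p = 0.0398, limma) but was called in 8 of 22 fits that left out 1 array, and its second spot by 0.05 without a call. SDHAF2, which helps attach the flavin to succinate dehydrogenase, was not called across both conditions, where its reading of -3.21 on replicate 3 of the THP-1 controls lay far below the -2.50 to -2.42 of the other 4. SDHAP1, a pseudogene of the flavoprotein subunit SDHA, was called higher by 0.11 ± 0.03; its cDNA spot may bind SDHA transcripts as well, which was not tested.

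Complex IV, cytochrome c oxidase, went both ways. COX18, the insertase that brings part of the mitochondrially encoded subunit COX2 through the inner membrane, was lower in CaCo-2 at both of its spots. Spot 07G17 read -0.18, -0.14, -0.09, -0.05 and 0.02 on 5 CaCo-2 TNF arrays, and -0.26, -0.23, -0.15, -0.03 and 0.00 on 5 CaCo-2 control arrays. In THP-1 cells it read -0.15 to 0.16 with a median of 0.05 on 7 THP-1 TNF arrays, and -0.03, 0.06, 0.07, 0.12 and 0.21 on 5 THP-1 control arrays. All 10 CaCo-2 readings were below the THP-1 median, while 3 THP-1 readings reached into the CaCo-2 range, and the difference was -0.17 ± 0.04 or 0.889-fold (adjusted p = 0.00802, limma). Spot 53B02 differed by -0.09 ± 0.02 (adjusted p = 0.00947, limma), with a reading on 6 of 10 CaCo-2 arrays and on all 12 THP-1 arrays. The copper chaperone COX11, which delivers copper to the complex, differed at its tested spot by -0.06 ± 0.04 and COX19, also of the copper pathway, by 0.07 ± 0.03, neither of them called.

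Of the complex IV subunits, COX7A2L, a factor of respiratory supercomplexes, was called higher by 0.09 ± 0.02 (adjusted p = 0.0188, limma). COX5B, a nuclear subunit and the brightest spot described here, was not called, at a difference of -0.12 ± 0.05 (adjusted p = 0.0629, limma): it read 1.96, 1.97, 2.00, 2.07 and 2.07 on 5 CaCo-2 TNF arrays, and 1.76, 1.98, 1.98, 2.14 and 2.27 on 5 CaCo-2 control arrays. The THP-1 readings of COX5B were 2.08 to 2.32 with a median of 2.14 on 7 THP-1 TNF arrays, and 2.03, 2.08, 2.12, 2.20 and 2.22 on 5 THP-1 control arrays, and 11 of the 12 lay inside the CaCo-2 range. Complex III, which passes electrons to cytochrome c, had 0 of 3 spots called, with UQCR10 closest at 0.04 ± 0.01. Complex V had 0 of 2 spots called, with ATP5MJ closest at 0.07 ± 0.03. With so few spots tested, these complexes were too thinly covered for a difference between complexes to be read, and none was tested.

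**Figure D3:**
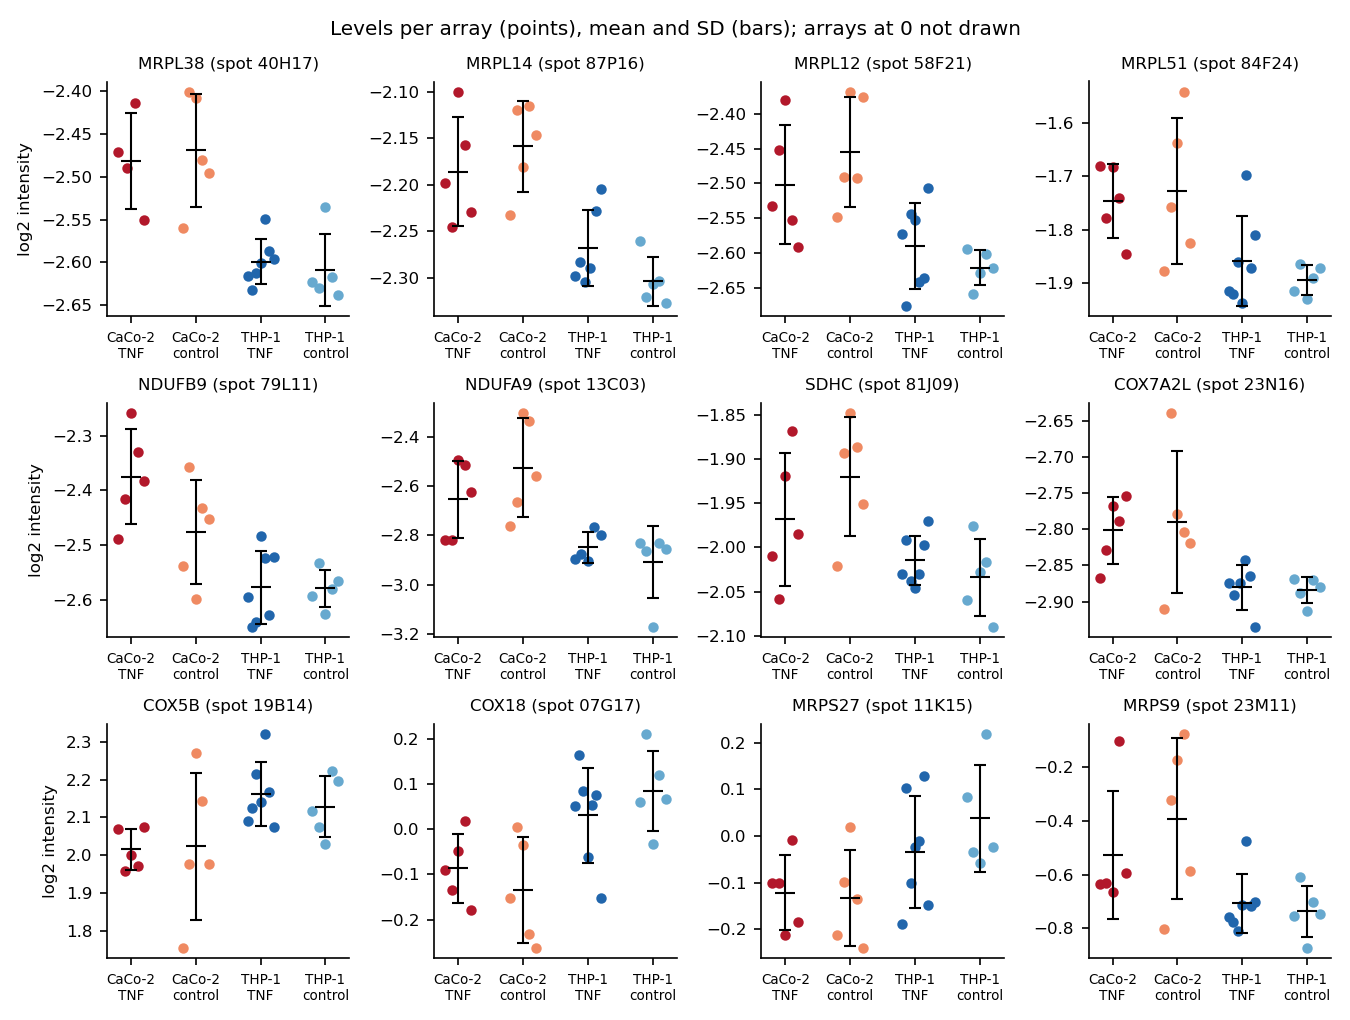
Log2 intensity (y axis) of 12 spots on each array (points) in the 4 groups (x axis), with the mean and SD over the arrays that have a reading. MRPL38, MRPL14 and NDUFB9 lie higher in both CaCo-2 groups, COX18 lower, and every panel shows readings of the 2 lines that overlap.

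The direction of the calls changed with brightness. With all spots tested split into 4 equal bins by mean level, 7 of 21 of these genes' spots were called higher in the dimmest bin, 14 of 32 and 8 of 22 in the next ones and 1 of 16 in the brightest; those called lower numbered 0, 0, 1 and 2 in the same order. Over all spots tested, 8.65%, 17.4%, 15.9% and 9.64% were called higher and 0.520%, 1.94%, 4.99% and 11.8% lower from the dimmest to the brightest bin, so the shift toward lower calls was also that of the whole array. The median difference of these spots was 0.07, 0.06, 0.05 and -0.03 from the dimmest to the brightest bin, and that of all spots 0.03, 0.03, 0.03 and -0.00055. All 3 spots called lower (both of COX18 and that of MRPS27) thus came from the 2 brighter bins, and the part of the brightness in the line difference was not tested.

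The same line difference was measured on 2 separate sets of arrays, once in unstimulated cells and once after TNF. The sets are not independent, since all arrays were normalized together. The CaCo-2 arrays that stand apart also hold TNF and control arrays that deviated together. Between the unstimulated lines, 1 of 102 spots tested was called (MRPL14, 0.15 ± 0.02, adjusted p = 0.0426 by limma), where 0.386% of all spots were. After TNF, 4 of 106 were called, where 2.14% of all spots were: SDHAF2 (0.12 ± 0.02), NDUFB9 (0.20 ± 0.04), MRPS35 (0.13 ± 0.02) and MRPL38 (0.12 ± 0.03), all higher in CaCo-2. SDHAF2 read -2.44, -2.38, -2.37 and -2.35 on 4 CaCo-2 TNF arrays (1 at 0), against -2.54 to -2.49 with a median of -2.50 on 7 THP-1 TNF arrays. Its difference turned to -0.0557 when values of 0 were set to the array's lowest reading. Both counts moved with single arrays and settings: without CaCo-2 control replicate 1, 18 spots were called between the unstimulated lines, and without any other control array 0; after TNF, 20 were called without THP-1 TNF replicate 8, 1 without THP-1 TNF replicate 1, and 2 without THP-1 TNF replicate 2 or 4. Without the 3 CaCo-2 arrays that stand apart 15 were called unstimulated and 5 after TNF, without the 2 that stand apart 0 and 4, and without all 5 of them 15 and 10. Shares over all spots are not given for these fits, so such moves may be those of the whole array. The share of all calls that were higher in CaCo-2 was 64% unstimulated and 82.2% after TNF, against 60% and 39.7% without normalization, 80% and 87.7% with array medians aligned and 54.5% and 54.9% with the always measured spots. The smallest p in the opposite direction belonged to COX18 unstimulated (-0.22 ± 0.06, adjusted p = 0.123) and to COX5B after TNF (-0.15 ± 0.04, adjusted p = 0.0894), by limma and without a call. Next by p unstimulated came MRPS24 (0.13 ± 0.03), SDHAP1 (0.14 ± 0.03) and MRPL12 (0.17 ± 0.03) above 0, and COX18 at spot 53B02 (-0.09 ± 0.03), MRPS27 (-0.17 ± 0.06) and MRPS18B (-0.15 ± 0.07) below it. After TNF both spots of COX18 (-0.08 ± 0.03 and -0.12 ± 0.05) and NDUFA10 (-0.07 ± 0.04) followed below 0.

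Of the 91 spots tested in both sets, 73 were higher and 12 lower in CaCo-2 in both, so 93.4% had the same sign, against 78.0% of all 16931 spots. Across these 91 spots, which share arrays within each set and are not independent replicates, Pearson's r was 0.76 and Spearman's rho 0.69, against 0.70 and 0.62 over all spots. For the ribosomal proteins the same-sign share was 94.3% (44 higher and 6 lower of 53 spots) and for the respiratory chain and its assembly factors 91.9% (28 higher and 6 lower of 37). The agreement covers whatever separates the arrays of the 2 lines in either condition, and the line cannot be told apart from a difference in how its arrays were handled.

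**Figure D4:**
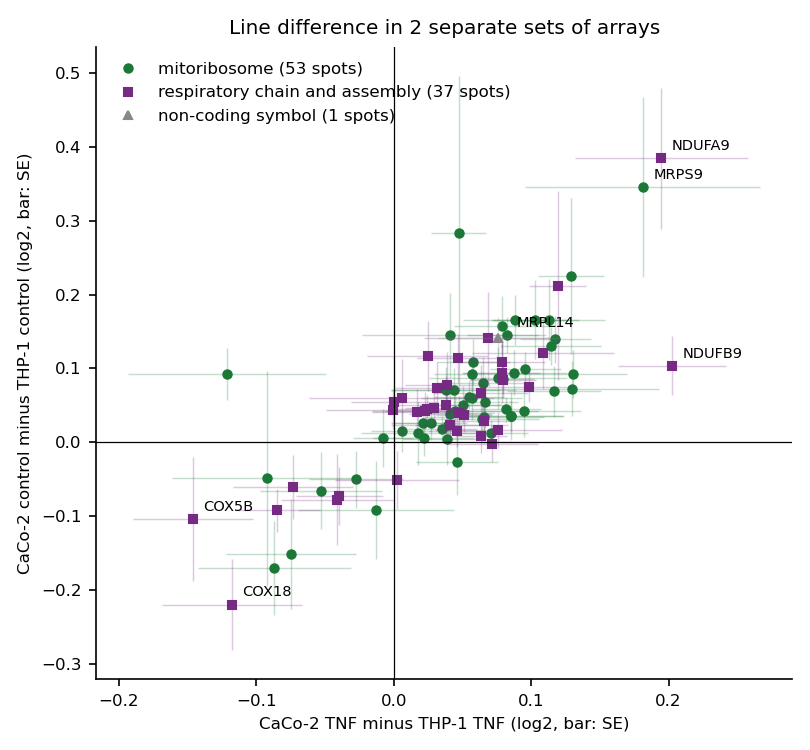
Log2 difference between the lines after TNF (x axis, CaCo-2 TNF minus THP-1 TNF) and unstimulated (y axis, CaCo-2 control minus THP-1 control) for the 91 spots tested in both, with SE bars. Points gather in the upper right quadrant (73 spots), with COX18 and COX5B among the 12 in the lower left.

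No difference between TNF and control arrays passed the test for any of these genes. In CaCo-2, 0 of 106 spots tested were called, where 0% of all 19479 spots were; 2 of the 106 and 479 of all spots had an unadjusted p under 0.05 in the limma fit. In THP-1, 0 of 104 were called, where 0% of all 21989 spots were, with 1 of these and 544 of all spots under 0.05 before adjustment. The median difference was 0.01 in both lines, 101 of 106 spots in CaCo-2 and 98 of 104 in THP-1 lay within 0.1 of 0 on the log2 scale, and the median SE was 0.04 and 0.03. The counts stayed at 0 in every other setting run for either line. An adjusted p above the threshold does not show that levels were alike.

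The small subunit protein MRPS23 had the smallest p in CaCo-2, with -2.89, -2.82 and -2.79 on 3 CaCo-2 TNF arrays (2 at 0), against -2.99, -2.96, -2.93 and -2.89 on 4 CaCo-2 control arrays (1 at 0). The lowest TNF reading lay just below the highest control reading, the other two above all control readings, and the difference was 0.10 ± 0.04 (p = 0.0294, adjusted p = 1, limma). MRPS28 (0.06 ± 0.03), NDUFB9 (0.10 ± 0.05) and MRPL18 (0.06 ± 0.03) followed among the higher spots, and MRPL42 at spot 52L04 (-0.11 ± 0.05), MRPL17 (-0.06 ± 0.03), MRPL33 (-0.05 ± 0.03) and MRPS9 at spot 45P19 (-0.04 ± 0.03) among the lower ones. MRPS18A had the smallest p in THP-1, with -1.19 to -1.11 with a median of -1.15 on 7 THP-1 TNF arrays, against -1.11, -1.09, -1.08, -1.07 and -1.07 on 5 THP-1 control arrays. The highest TNF reading lay just above the lowest control reading and the others below all control readings, with a difference of -0.06 ± 0.02 (p = 0.0124, adjusted p = 1, limma). UQCR10 (-0.04 ± 0.02), MRPS14 (-0.07 ± 0.03) and MRPS18B (-0.08 ± 0.06) were the next below 0, and NDUFV1 (0.09 ± 0.04), COX19 (0.06 ± 0.03), MRPL19 at spot 10N24 (0.05 ± 0.02) and MRPS24 (0.04 ± 0.02) the first above it.

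The TNF response was not called different between the lines at any of the 91 spots tested together, where 0% of all 16931 spots were called and 1 of the 91 and 411 of all spots had an unadjusted p under 0.05. The smallest p belonged to MRPL42 at spot 52L04, whose TNF difference was -0.21 ± 0.09 in CaCo-2 minus THP-1 (p = 0.0288, adjusted p = 1, limma). MRPL14 (-0.06 ± 0.04), NDUFA9 (-0.19 ± 0.12) and SDHC (-0.07 ± 0.05) were next on that side, and UQCR10 (0.06 ± 0.03), MRPS28 (0.06 ± 0.03), NDUFB9 (0.10 ± 0.06) and NDUFA11 (0.07 ± 0.04) on the other. Each value is the response in CaCo-2 minus that in THP-1 with its SE.

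**Figure D5:**
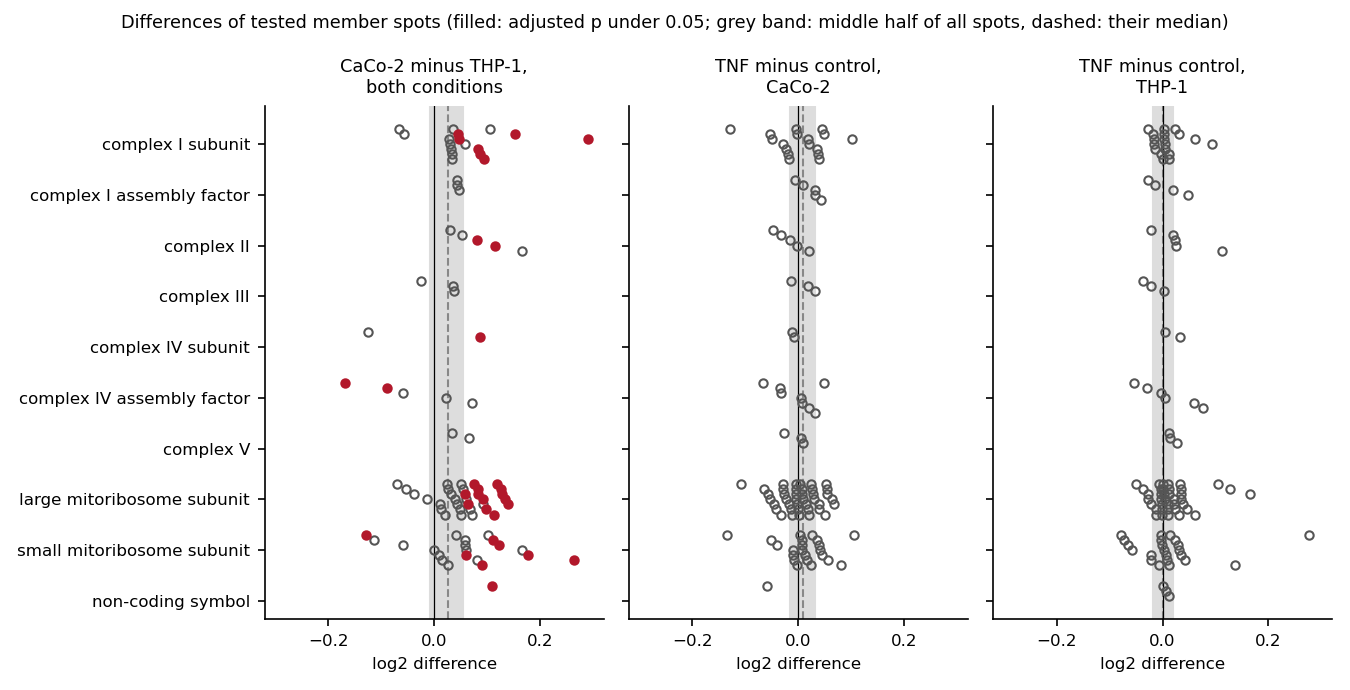
Log2 difference (x axis) of each tested spot by class (y axis) between the lines in both conditions and between TNF and control in CaCo-2 and in THP-1. Filled points are called, the grey band spans the quartiles of all spots and the dashed line their median; called spots occur only between the lines, 30 to the right and 3 to the left of 0.

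Of the 113 genes, 37 had 2 or more spots, and spots of a gene often disagreed in how regularly they were read. The 4 spots of COX11 and of MRPL19 yielded 1 and 0 tested spots, and the 3 spots of NDUFAF4, an assembly factor of complex I, yielded 0. NDUFA10, NDUFB2 and MRPS14 had 2 tested spots out of 3 each, 1 on either side of 0: from -0.07 to 0.03 in NDUFA10, from -0.06 to 0.03 in NDUFB2 and from -0.06 to 0.01 in MRPS14, none called. MRPS25 had 1 tested spot out of 3, and it was called. The genes whose 2 spots pointed the same way were COX18 (-0.17 and -0.09), MRPS35 (0.18 and 0.09), NDUFB11 (0.09 and 0.06) and SDHD (0.11 and 0.05), against MRPL38 (0.13 and -0.04) and MRPL42 (0.06 and -0.01) with opposite signs.

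Neighbouring mitochondrial genes were measured beside them, in lists described by counts only. Of the electron carriers and assembly factors outside the families, 3 of 13 spots tested were called higher in CaCo-2 and 0 lower, of the tricarboxylic acid cycle and pyruvate dehydrogenase 2 of 13 higher, of mitochondrial biogenesis and genome maintenance 1 of 12 higher, of mitochondrial translation 2 higher and 1 lower of 10, and of protein import 3 higher and 1 lower of 14, against 17.7% of all spots. Their median differences were 0.04, 0.04, 0.02, 0.02 and 0.05 in that order. No spot with 1 gene symbol carried any of the 18 symbols listed for mitochondrially encoded genes, where some genes appear under more than 1 name. Not every name of such genes was searched, and 15677 spots have no symbol in the annotation. Whether the partners of these subunits were measured is therefore unknown. Cytosolic ribosomal proteins, 1 of 8 called higher, and proteasome genes, 8 of 31 called higher, had medians of 0.02 and 0.04, and of the glycolysis genes 0 of 3 spots were called. TNF calls numbered 0 in each of these lists in both lines, and no difference between any list and the genes described here was tested.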

How the data were processed

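Phosphorus-labelled cDNA from the cultures was hybridised to membranes, per the labels' protocols. Linear intensities were deposited, whose nearly equal spread in every single column shows a scaling by the authors; how images were read, background removed or arrays scaled is not stated in the labels or headers. Of 33 deposited columns, 11 were at about 3 times the scale of the rest. Of these, 10 held the readings of a single column (at least double at 99% of spots, tolerance 0.001) and were dropped in its favour. The sums were not plain copies, since they had fewer values of 0. For CaCo-2 control replicate 1, 35.2% of spots were at 0, against 20.6% in its sum. For CaCo-2 TNF replicate 5 these shares were 32.0% and 17.2%. Readings held only by a dropped sum were not used in the main fits, but entered where the columns were averaged. The pair that carries labels of both CaCo-2 groups was left out, and the summed column without a partner was divided by 3, leaving 22 arrays, whose number limits the precision. Values were quantile normalized with 0 at the floor, then 0 and negative codes were taken as missing and log2 taken. An earlier account of these data kept 0 at a floor, which is an alternative here. Spots with at least 3 arrays above 0 in each group were fitted with limma 3.58.1 (R 4.3.3, lmFit and eBayes with a variance trend), as two-sided tests in 6 comparisons; p-values were adjusted by Benjamini-Hochberg across every spot tested, with a threshold of 0.05; the fit was checked on simulated data. Arrays were not paired by number. Within-group deviations of same-numbered arrays correlated between -0.365 and 0.665, which shows no uniform pairing but cannot exclude a shared culture or day. The members and lists were chosen with earlier results of these data known. Named are all spots called in any comparison, the 4 spots with the smallest p in each direction (8 for both conditions), the top spot of each complex, genes with 3 or more spots and spots read in 1 line alone. Symbols, matched for all 159 spots, and promoters are RefSeq's (GRCh38.p14). cDNA spots do not tell strands, paralogs or pseudogenes apart. Alternatives covered values of 0, normalization, columns, spread, dim spots and arrays left out; leaving out the arrays that stand apart and the quantile normalization over always measured spots were chosen after seeing the data.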

Additional observations from a re-analysis of the deposited data

Results flagged for a closer look

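An outlying array was searched for in 133 groups of values, taken in each group of arrays. They were the levels of the called spots, the share of the spots described that were above 0, and a mean deviation. The mean deviation was taken over the 36 spots described that were above 0 on every array. By Dixon's criterion 16 of the 133 held an array far from the others, where 6.65 are expected by chance (about 1 in 20). THP-1 TNF replicate 8 gave 6 of them: it read high for NDUFB6 (-2.57, others -2.65 to -2.62), MRPL41 (-1.64, others -1.72 to -1.70), NDUFA6 (-2.37, others -2.50 to -2.46), MRPL50 (-2.40, others -2.51 to -2.48), MRPL33 (-2.19, others -2.27 to -2.26) and MRPS35 at spot 57I11 (-2.21, others -2.42 to -2.35). Without this array 44 spots were called between the lines in both conditions, against 33. The share of all spots called without it is not given here.

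THP-1 control replicate 3, the column divided by 3, gave 5. It read low for NDUFA9 (-3.17, others -2.86 to -2.83), SDHAF2 (-3.21, others -2.50 to -2.42) and MRPS35 at spot 62C23 (-2.72, others -2.19 to -2.16), and high for MRPL38 (-2.54, others -2.64 to -2.62). Its mean deviation over the 36 spots above 0 on every array was -0.0685, against -0.0185 to -0.00256 on the other THP-1 control arrays.

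MRPS9 at spot 23M11 was high on CaCo-2 TNF replicate 5 (-0.10, others -0.67 to -0.59) and on THP-1 TNF replicate 5 (-0.47, others -0.81 to -0.70). SDHD was high on THP-1 TNF replicate 5 (-2.70, others -2.87 to -2.83) and on THP-1 control replicate 4 (-2.70, others -2.85 to -2.81). MRPL42 at spot 44H17 was low on CaCo-2 control replicate 4 (-2.25, others -2.20 to -2.19).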

How the results depend on the processing

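TNF calls among these genes stayed at 0 under every alternative run. Between the lines, the number of spots called unstimulated (1), after TNF (4) and in both conditions (33) became 0, 2 and 6 with values of 0 at the floor, 3, 1 and 13 over always measured spots, 0, 0 and 1 without normalization, 0, 7 and 20 with array medians aligned, 0, 0 and 7 with the columns averaged, 2, 2 and 19 with all 33 columns, 13, 27 and 52 with array weights, and 0, 0 and 6 with quantile normalization over always measured spots. With the replicate block, for numbers that showed no uniform pairing of the arrays, 0, 4 and 34 were called. The unstimulated count was also 8 with all 4 groups in 1 fit, 0 without a variance trend, 0 with a minimum of 2 arrays, 15 without 3 CaCo-2 arrays, 0 without 2 and 15 without 5. The count after TNF was also 7 with the crossed pair kept, 7 with all 4 groups, 7 without the dimmest spots, 2 over gene means and 10 without 5 CaCo-2 arrays. Leaving out 1 array gave 0 to 18, 1 to 20 and 26 to 44. Shares over all spots are not given for these fits, so these counts may follow the whole array. Differences that turned negative after TNF were MRPL38 (-0.0385 with 0 at the floor) and SDHAF2 (-0.0557 with 0 at the floor, -0.102 averaged, -0.0217 with all columns). In both conditions, with 0 at the floor, without normalization and averaged in this order, they were MRPL3 (-0.0611, -0.0020, -0.0468), NDUFA6 (-0.0025, -0.0155, -0.0345) and MRPL55 (-0.24, -0.001465, -0.0504). MRPL33 was -0.00781 with 0 at the floor, -0.328 averaged and -0.188 with all columns, and without normalization MRPL42 was -0.00182, NDUFA5 -0.0228 and NDUFA13 -0.0199. The cause was not tested. Readings at 0 and the number of arrays limit what could be called.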

Other observations

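Within a line, a few spots were read almost only after TNF. In CaCo-2, COX11 at spot 39H17 and MRPS25 at spot 41G04 had a reading on 4 of 5 TNF arrays and on 0 of 5 control arrays, a pattern of 1.26% of the spots described and 0.226% of all spots. In THP-1, MRPL36 at spot 93B05 was the only such spot (0.629% against 0.0666% of all spots). The opposite pattern occurred at 0 of these spots in either line, and at 0.203% of all spots in CaCo-2 and 0.0723% in THP-1. Other spots of COX11, MRPS25 and MRPL36 did not show the TNF pattern. COX11 had a reading on 9 of 10 CaCo-2 arrays at spot 28I21 and at spot 41M01. MRPL36 at spot 25F13 had a reading on 11 of 12 THP-1 arrays. COX11 at spot 39H17 was itself read on 8 of 12 THP-1 arrays. The spots named for the pattern were chosen after their values were seen, and no test was made.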
